A study of Mus musculus with 15 samples.

Results

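Collagen genes and the genes that fold, trim and crosslink collagen were followed across 15 single cells. They were taken from the deposited expression table by symbol: numbered collagen chains, the prolyl and lysyl hydroxylase families, the chaperone Serpinh1, the proteinases of the numbered Adamts family and Bmp1, the Pcolce enhancers and the lysyl oxidase family. The rule found 43 of 8446 rows, of which 21 are collagen chains and 22 are enzymes and helpers. The same rule matches 83 symbols of the reference gene list, and the others were not analysed here. The cells form 1 group, labelled Tomato+ cells from the inguinal adipose tissue of adult C57BL/6 mice of the genotype Prrx1-CreERT;Tomato. A tamoxifen-dependent Cre under Prrx1, a homeobox gene of mesenchyme, turned on the reporter, and tamoxifen was injected at 2 mg per 30 g once a day for 3 days. There is no untreated or Tomato-negative group and no animal is named, so how many mice lie behind the cells is unknown, and without replicates of a group the cells are described with no test.

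Collagens are the main load-bearing proteins of connective tissue. Each molecule is a triple helix of chains that are hydroxylated on proline and lysine and held by the chaperone Serpinh1 (Hsp47) in the endoplasmic reticulum. Fibrillar procollagens are trimmed at both ends outside the cell, assembled into fibrils and crosslinked by lysyl oxidases. Type IV collagen forms the sheet of basement membranes, and type VI collagen forms beaded filaments around cells. In fat, the stromal progenitors make most of the fibrillar matrix, while adipocytes and vessels are wrapped in basement membrane.

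Levels are log2(FPKM + 1), where FPKM is a fragment count scaled to transcript length and library size, and a gene was called detected in a cell at 1 FPKM or more. All cells carry the same distribution of values, so each cell has 4369 detected rows and a level states mainly a gene's rank within its cell. Read depth is unknown, since the file holds no counts, and between 930 and 1974 rows stood at a cell's lowest value. Of 11 listed stromal progenitor markers 9 had a row, and all 9 were detected in at least 8 cells, where 46.8% of all rows were. Cells 5 and 13 stood apart in mural markers (genes of pericytes and smooth muscle, 5 of 10 with a row), with a mean of 8.72 and 5.83, against at most 2.37 in the other cells. The summed level of that list was 12.14 in cell 5 and 11.26 in cell 13, against 1.42 to 5.43 in the other cells. In cell 13 the smooth muscle actin Acta2 was at 0.45, while Higd1b, Kcnj8, Rgs5 and Abcc9 were above 1 FPKM. The immune list rested on Csf1r, detected in 4 cells, and the endothelial list on Tek, detected in cell 1, and Esam, detected in 7 cells. Esam was highest in cells 13 (10.90) and 5 (7.83), the same cells that stood apart in mural markers, and at most 2.97 elsewhere.

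Of the 43 genes, 34 were detected in at least 8 cells, where 46.8% of all rows were, and 14 were detected in all 15 cells, where 12.1% of all rows were. The median over the 43 genes of their median level was 4.84, against 0.79 over all rows. At 5 FPKM or more, 31 of the 43 reached 8 cells, where 32.6% of all rows did. The 9 genes that missed 8 cells at 1 FPKM are Col27a1, Col4a5, Col6a5, Col6a6, Col8a1, P4ha3, Loxl3, Adamts4 and Adamts15. The set is thus not uniformly high. Detection in 15 of 15 cells has an exact 95% binomial interval from 78.2% of cells, detection in 12 of 15 cells one from 51.9% to 95.7%, and these intervals cover counting error only.

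**Figure D1:**
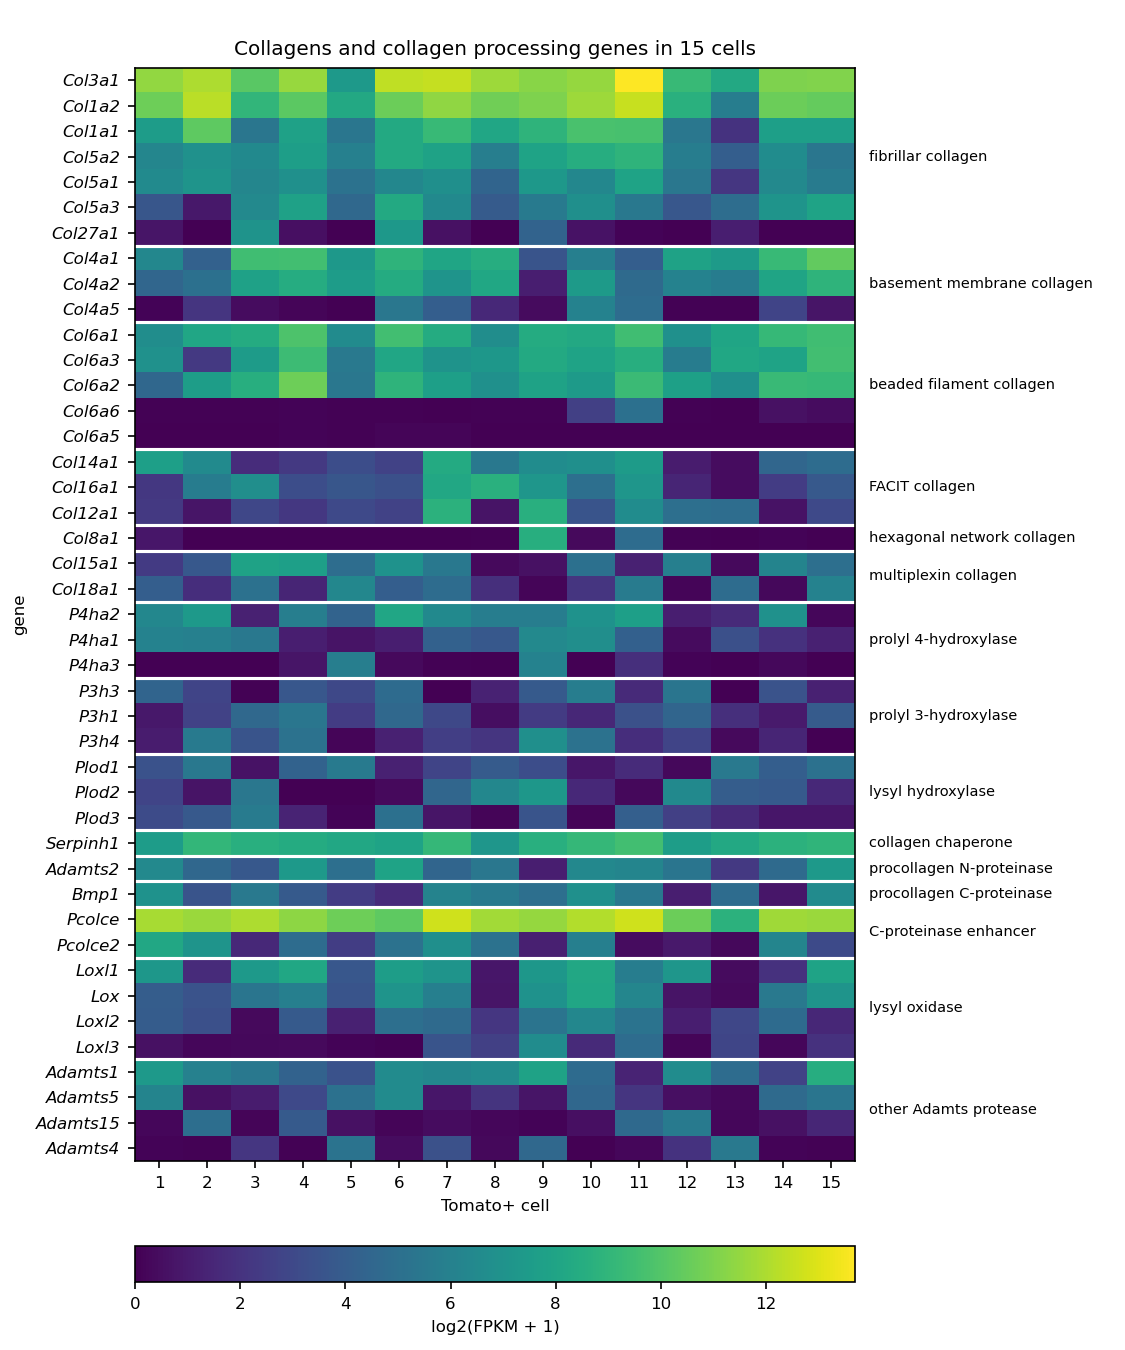
Level of each of the 43 genes (rows, grouped by collagen class or processing step) in each of the 15 Tomato+ cells (columns), as log2(FPKM + 1). Col3a1, Col1a2 and Pcolce are bright in most cells, Serpinh1 is even across cells, and cell 13 is dark for the type I chains, Lox and Loxl1.

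The sequence before the start of a fibrillar chain that varied between cells and that of the steadiest widespread gene are shown for orientation. Both are the 250 bases before the RefSeq start on GRCm38.p6, read 5′ to 3′ on the gene's strand, with motif matches in capitals. A RefSeq promoter entry existed for 29 of the 43 genes, and the window of 15 of these held no annotated exon. Col1a1 is among those without an entry.
Col3a1, plus strand, chr1:45311288-45311537: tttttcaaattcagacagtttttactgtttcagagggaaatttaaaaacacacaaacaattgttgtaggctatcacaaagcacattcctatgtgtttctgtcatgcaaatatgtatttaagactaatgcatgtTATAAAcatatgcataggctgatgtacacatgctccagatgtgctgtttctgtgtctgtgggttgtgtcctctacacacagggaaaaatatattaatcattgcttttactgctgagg
Serpinh1, minus strand, chr7:99353240-99353489: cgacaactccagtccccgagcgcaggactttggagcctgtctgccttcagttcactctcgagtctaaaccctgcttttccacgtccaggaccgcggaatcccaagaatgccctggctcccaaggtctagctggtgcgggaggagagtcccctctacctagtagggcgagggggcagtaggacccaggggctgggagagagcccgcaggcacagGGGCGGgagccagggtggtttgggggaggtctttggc
The CCAAT box, the TATA motif TATAAA and the GC box GGGCGG were searched on both strands, and matches of different motifs did not overlap. TATAAA occurs from 117 to 112 bases before the Col3a1 start and in 12.4% of 32851 promoter windows of this length, and GGGCGG occurs from 37 to 32 bases before the Serpinh1 start and in 32.7% of them. CCAAT, present in 33.8% of windows, was in neither. A match is a run of letters and not a shown binding site.

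Fibrillar chains carried most of the collagen signal. Col3a1, the chain of type III collagen, which accompanies type I in loose tissue, had a lowest level of 7.40 in cell 5, a median of 11.49 and a highest level of 13.69 in cell 11. The highest value is the top of the scale and is shared by the first gene of every cell, so it gives a rank. Col1a2, the alpha 2 chain of type I collagen, ran from 5.80 in cell 13 through a median of 10.64 to 12.56 in cell 11. Col1a1, the alpha 1 chain of the same molecule, ran from 2.00 in cell 13 through a median of 7.85 to 10.30 in cell 2. Cells 3, 5 and 12 (5.35, 5.38 and 5.41) stood between cell 13 and the other 11 cells, which had at least 7.57 of Col1a1.

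Col1a1 was listed below Col1a2 in 15 of 15 cells, by 1.92 to 3.80 on the log2 scale with a median difference of -2.71. Type I collagen holds more alpha 1 than alpha 2 chains, so the deposited levels do not run in the order of the protein. The longest annotated transcripts are 5930 nt for Col1a1 and 5348 nt for Col1a2. The lengths used for the deposited FPKM are not given, and the part of length in this order was not tested.

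The minor fibrillar chains of type V collagen, which sit inside type I fibrils and control their width, were lower but widespread. Col5a2 ranged from 4.08 in cell 13 to 8.90 in cell 11, with a median of 6.65. Col5a1 ranged from 2.15 in cell 13 to 7.96 in cell 11, with a median of 6.34. Col5a3, the third chain, ranged from 0.87 in cell 2 to 8.33 in cell 6, with a median of 5.56, and was detected in 14 cells. The highest and lowest cells of Col5a3 were thus not those of the other type V chains. Col27a1, a fibrillar chain best known from cartilage, passed 1 FPKM in cells 6 (7.31), 3 (7.02), 9 (4.37) and 13 (1.15).

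The basement membrane chains Col4a1 and Col4a2 were detected in every cell over a wide range of levels. Col4a1 ran from 3.55 in cell 9 through a median of 7.91 to 10.38 in cell 15. It was low in cells 9, 11 (4.09) and 2 (4.25), intermediate in cells 10 (5.93) and 1 (6.33), and at 7.33 or more in the other 10 cells. Col4a2 ran from 1.16 in cell 9 through a median of 7.47 to 8.88 in cell 15. Col4a1 exceeded Col4a2 in 11 cells, with a median difference of 1.07 on the log2 scale. Col4a5, an X-linked chain of the minor type IV network, passed 1 FPKM in 7 cells, led by cells 10 (6.06) and 6 (5.44), and stood at 4.85 or lower elsewhere.

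The beaded filament chains of type VI collagen, a matrix component tied to fat stroma, were also present in every cell. Col6a1 ran from 6.60 in cell 5 through a median of 8.43 to 9.86 in cell 4, a spread over cells of 1.13 (SD, n = 15) that is the smallest among the widespread collagens. Col6a2 ran from 4.55 in cell 1 through 7.79 to 10.70 in cell 4. Col6a3, the longest chain of the trimer, ran from 2.27 in cell 2 through 7.94 to 9.56 in cell 15. Cell 13 kept all 3 chains (8.06, 6.82 and 8.14 for Col6a1, Col6a2 and Col6a3) although its Col1a1 stood at 2.00. Col6a6 was detected in cells 11 (5.07) and 10 (2.60) only. Col6a5 was detected in 0 of 15 cells. For a count of 0, the rule of 3 (3 divided by the 15 cells) puts an upper limit of 20.0% on the share of such cells sampled. The exact 95% binomial interval ends at 21.8%. These limits treat the cells as independent draws, although the number of mice is unknown. Both limits concern cells at 1 FPKM or more, and transcripts missed within a cell are not bounded, as depth is unknown.

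The FACIT collagens, which attach to the surface of fibrils, were uneven. Col14a1 was detected in 14 cells, from 0.43 in cell 13 to 8.36 in cell 7, with a median of 4.84, and was at 6.55 or more in cells 1, 2, 7, 9, 10 and 11. Col16a1 was detected in 14 cells, from 0.44 in cell 13 to 8.70 in cell 8, with a median of 3.85. Col12a1, which is found in tissues under tension, was detected in 12 cells, with a median of 3.01. It was high in cells 7 (8.82), 9 (8.64) and 11 (6.66) and at 5.02 or lower in the other 12 cells.

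The multiplexins, the proteoglycan-type collagens of the basement membrane zone, were each detected in 12 cells. Col15a1 ran from 0.36 in cell 13 to 7.88 in cell 3, with a median of 4.99, and cell 4 (7.75) was next. Col18a1, the precursor of endostatin, ran from 0.21 in cell 12 to 6.32 in cell 5, with a median of 4.09. Col8a1, a short-chain collagen of vessel walls and remodelling tissue, was detected in cells 9 (8.60) and 11 (4.84) and stood at 0.84 or lower in the other 13 cells. No gene of the anchoring fibril (Col7a1) and transmembrane collagen classes was analysed here.

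As a group, the collagens took between 0.219% (cell 5) and 3.92% (cell 11) of a cell's summed FPKM, with a median of 1.26%. Cells 13 (0.229%) and 12 (0.329%) were close to cell 5, and the next lowest cell was cell 3 (0.737%). The mean of the 9 stromal progenitor markers was lowest in cells 13 (5.39) and 12 (5.63), with 6.83 in cell 5 and 6.91 to 8.56 in the other cells. The list was mixed in cell 13. Pdgfra (0.20), Lum, Dpt, Mmp2 and Serping1 had their lowest level there, and Cd34 stood at 3.64. Vim (12.02) and Pdgfrb (7.66) had their highest level in cell 13, and Thy1 stood at 6.75. Of 8 listed mature adipocyte markers 5 had a row, and none was detected in at least 8 cells, where 46.8% of all rows were. Their summed level was 8.97 in cell 5, where Acaca, of fatty acid synthesis, stood at 8.96, and 8.33 in cell 12, which was highest for the lipase Pnpla2 (7.498) and the desaturase Scd1 (7.05). It was 1.04 in cell 13 and 1.05 to 6.65 in the other cells. The part of these markers in the low collagen totals was not tested. Fibrillar chains made up a median of 73.8% of the summed collagen FPKM, from 30.4% in cell 13 to 93.9% in cell 2. Beaded filament chains made up a median of 14.1%, from 4.24% in cell 2 to 48.6% in cell 13. Basement membrane chains made up a median of 9.48%, from 0.164% in cell 9 to 26.8% in cell 5. These shares rest on the inferred log base: read as natural logarithms, the values gave median shares of 86.0%, 7.61% and 4.52%.

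**Figure D2:**
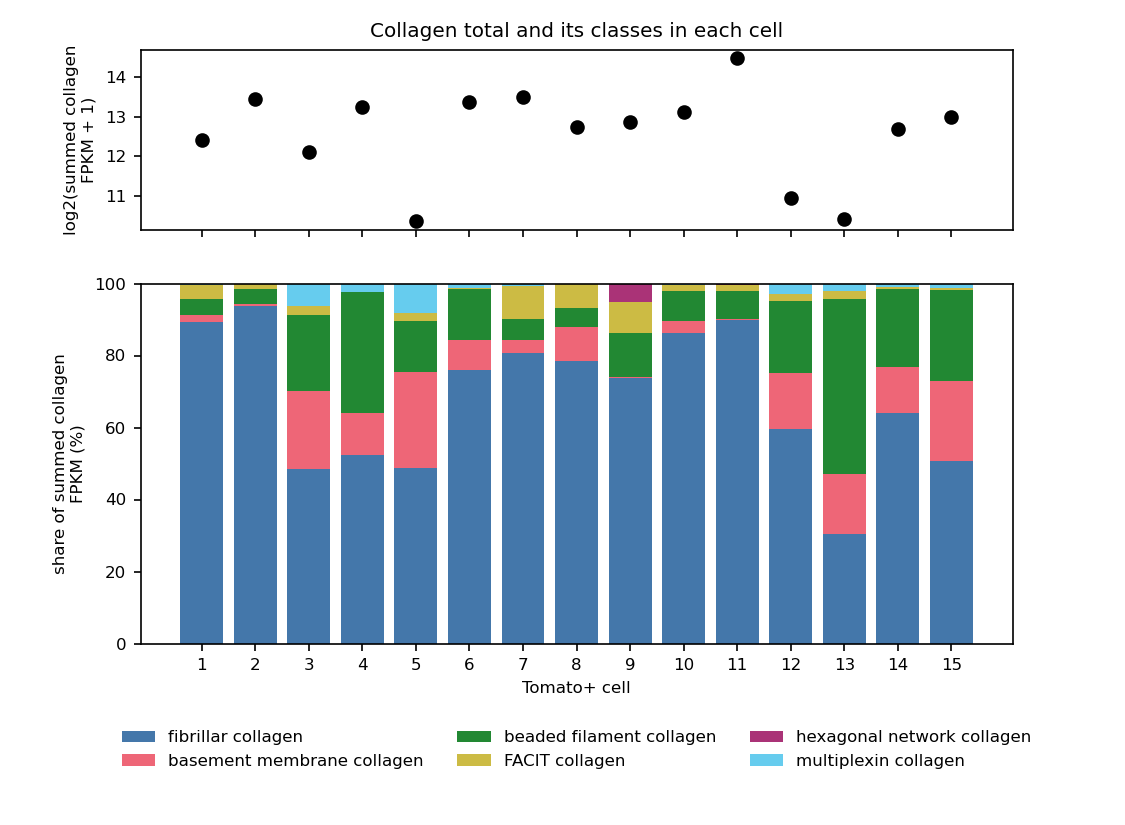
Upper panel, log2 of the summed collagen FPKM plus 1 in each Tomato+ cell. Lower panel, percent of that sum by collagen class, stacked to 100. Fibrillar chains fill 93.9% of the bar of cell 2 and 30.4% of that of cell 13, and cells 5, 12 and 13 have the lowest totals.

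The cells with low fibrillar shares differed in what else they held. In cell 13 beaded filament chains (48.6%) exceeded fibrillar chains (30.4%) as a share of the collagen total. In cell 5 fibrillar chains were at 48.7%, basement membrane chains at 26.8% and multiplexins at 8.27%. Cells 3 and 15 also had fibrillar shares near 50% (48.5% and 50.7%) with basement membrane shares of 21.7% and 22.2%, but without raised mural markers (means of 1.34 and 1.60). The mural marker means of cells 5 and 13 are given above, and the part that mural identity plays in their collagen makeup was not tested.

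Partner chains of the same molecule headed the list of gene pairs that went together from cell to cell. Over the 34 genes detected in at least 8 cells there were 561 pairs, with a median Spearman correlation of 0.132 across the 15 cells. The same median over all pairs of the 3949 rows detected that often was 0.0036. The highest of the 561 correlations was that of Col1a1 and Col1a2 (0.921), followed by Col6a1 and Col6a2 (0.904) and by Col4a1 and Col4a2 (0.882), each a pair of partner chains. Leaving out any 1 cell kept these between 0.903 and 0.952, between 0.882 and 0.933, and between 0.855 and 0.921. Without cells 5 and 13 they were 0.890, 0.902 and 0.890. These are descriptions over 15 cells that share a normalization and unknown mice, and they carry no p-value.

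The positions of these partner genes on GRCm38 (GENCODE M21) differ. Col1a1 lies on the plus strand of chromosome 11 (94936224 to 94953042) and Col1a2 on the plus strand of chromosome 6 (4504814 to 4541544). Col6a2 (76595762 to 76623630) and Col6a1 (76708792 to 76726168) are neighbours on the minus strand of chromosome 10. Col4a1 (minus strand, 11198423 to 11312826) and Col4a2 (plus strand, 11312805 to 11449287) lie head to head on chromosome 8, and their annotated starts overlap by 22 bases. The pair on separate chromosomes had a correlation of 0.921, and the adjacent pairs had 0.904 and 0.882. The part of gene position in these correlations was not tested.

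Other partner chains were looser. Col1a2 and Col3a1, from separate molecules of the same fibrils, had a correlation of 0.825, and Col5a1 and Col5a2 one of 0.764. Col6a3 had correlations of 0.735 with Col6a1 and 0.639 with Col6a2. Col5a2 and Col5a3 had 0.336, which was 0.556 without cell 15, where Col5a3 (7.95) was high and Col5a2 (5.36) low, and 0.214 without cells 5 and 13. Among pairs that do not share a molecule, Col14a1 and Col1a2 (0.843) were the highest, followed by Col3a1 with Col1a1 (0.829) and with Col1a2, and by Col5a3 and Col6a1 (0.822). These pairs were chosen from the 561 after their values were seen.

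**Figure D3:**
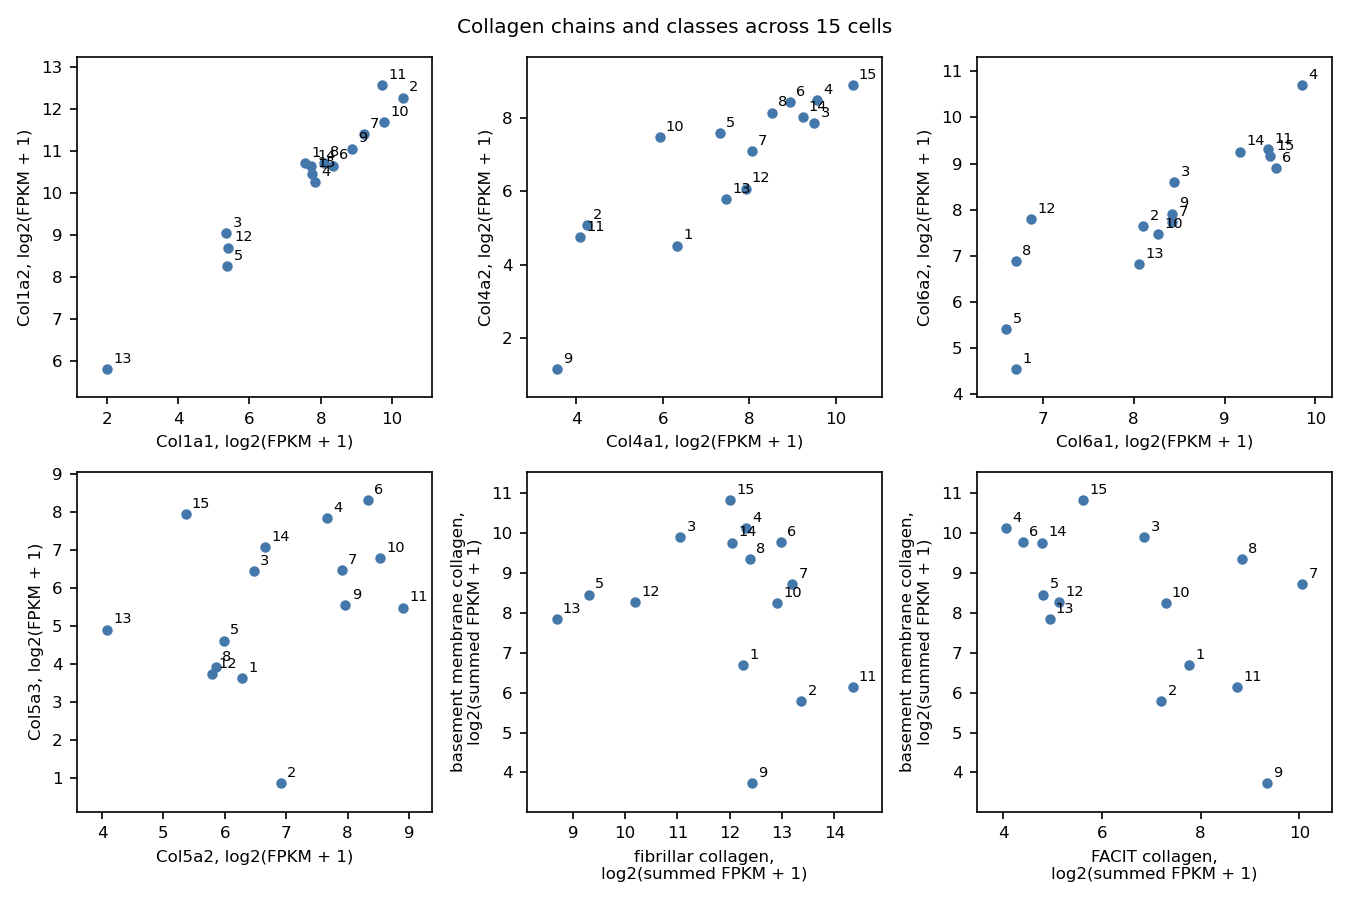
Each point is 1 of the 15 Tomato+ cells, numbered. The first 4 panels plot log2(FPKM + 1) of chain pairs, where the type I, IV and VI pairs lie along a line and Col5a2 and Col5a3 scatter, and the last 2 plot log2(summed FPKM + 1) of basement membrane chains against fibrillar and FACIT chains, where cell 9 is lowest in basement membrane chains.

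Between classes, basement membrane chains tended to be low where FACIT chains were high. The Spearman correlation of the 2 class sums was -0.514 across 15 cells, from -0.618 to -0.429 on leaving out any 1 cell, -0.615 without cells 5 and 13, and -0.378 without cells 1, 11 and 14, which have the most rows at their lowest value. By gene, Col14a1 had correlations of -0.489 with Col4a1 and -0.407 with Col4a2, and Col12a1 had -0.393 and -0.454. Col16a1 had only -0.193 and -0.046. Cells 9 and 11, with basement membrane sums of 3.73 and 6.14, had FACIT sums of 9.34 and 8.75. Cells 7 and 8 departed from this, with high FACIT sums (10.06 and 8.84) beside basement membrane sums of 8.70 and 9.34. Fibrillar and basement membrane sums had a weaker correlation of -0.304 that depended on single cells. It was -0.511 without cells 5 and 13, -0.140 without cells 1, 11 and 14, and -0.169 on leaving out either cell 2 or cell 11. Multiplexin and basement membrane sums had one of 0.786, from 0.736 to 0.903 on leaving out any 1 cell. The multiplexin genes differed in this. Col15a1 had correlations of 0.625 with Col4a1 and 0.557 with Col4a2, while Col18a1 had 0.118 and 0.168. Col15a1 and Col18a1 had -0.104 with each other.

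The hydroxylases act first on the new chains. P4ha2, a catalytic subunit of prolyl 4-hydroxylase, whose product stabilises the triple helix, was detected in 14 cells, from 0.23 in cell 15 to 8.11 in cell 6, with a median of 5.87. P4ha1, the other main subunit, was detected in 13 cells, from 0.42 in cell 12 to 6.77 in cell 10, with a median of 3.74. Cells 12 and 15 were low for both, with 0.42 and 1.28 of P4ha1 and 1.13 and 0.23 of P4ha2, although cell 15 had Col3a1 at 11.08 and the highest Col4a1. P4ha3 passed 1 FPKM in cells 9 (6.06), 5 (5.87) and 11 (1.87). P4ha2 had correlations with Col5a2 of 0.814 and with Col3a1 of 0.743 over the 15 cells, which are among the highest of the 561 pairs. P4ha1 had 0.421 and 0.318 with the same chains, which were named after the values were seen. With Col1a2 the 2 subunits were closer, at 0.664 for P4ha1 and 0.718 for P4ha2. With Col4a1 they had -0.543 and -0.379, and with Col6a3 -0.043 and -0.018.

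The prolyl 3-hydroxylase family modifies single prolines and works with partner proteins in the endoplasmic reticulum. P3h1, P3h3 and P3h4 were each detected in 12 cells, with medians of 2.69, 2.98 and 2.14. P3h4, a family member without known catalytic activity, was highest in cell 9 (6.80). The lysyl hydroxylases prepare lysines for crosslinks and sugars. Plod1 was detected in 12 cells (median 3.45), Plod2 in 10 (median 2.79) and Plod3 in 9 (median 1.65). Plod2, which modifies lysines of the chain ends and favours stable crosslinks, ranged from 0.00 in cells 4 and 5 to 7.25 in cell 9.

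Serpinh1, the collagen chaperone, was the steadiest of the 34 widespread genes. It ran from 7.20 in cell 8 through a median of 8.62 to 9.55 in cell 11, with an SD of 0.67 over the 15 cells. Cell 13 had it at 8.27 and cell 5 at 8.21, close to the median, although these cells had the lowest collagen totals. Cell 12, with the next lowest total, had it at 7.64. Across the 15 cells Serpinh1 had correlations of 0.536 with Col1a2, 0.375 with Col3a1 and -0.171 with Col4a1. In cell 8, with the lowest Serpinh1, Col3a1 stood at 11.69.

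Of the enzymes that trim procollagen, Adamts2, the main N-proteinase, was detected in all 15 cells, from 1.13 in cell 9 through a median of 5.32 to 7.93 in cell 6. Bmp1, the C-proteinase, was detected in 14 cells, from 0.84 in cell 14 through 5.03 to 6.95 in cell 1. Pcolce, a secreted protein that speeds C-terminal trimming, was the highest gene of the set by median (11.64), from 8.78 in cell 13 to 12.72 in cells 7 and 11. It ranked between 4 and 281 among all rows of a cell, with a median rank of 17. Its paralogue Pcolce2 was detected in 12 cells and was far more uneven, from 0.31 in cell 13 through 4.84 to 8.21 in cell 1.

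Pcolce and Col3a1 change places when length is taken back. Pcolce has a longest transcript of 2573 nt and Col3a1 one of 5564 nt. The library kit reads the 3' end, so FPKM may understate long genes, which was not tested. With FPKM multiplied by the length of the longest transcript in kb, the median was 13.01 for Pcolce, 13.97 for Col3a1 and 13.06 for Col1a2. Col6a3, the longest of the type VI transcripts at 10106 nt, then had the highest median of its class, 11.27 against 10.46 for Col6a1.

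**Figure D4:**
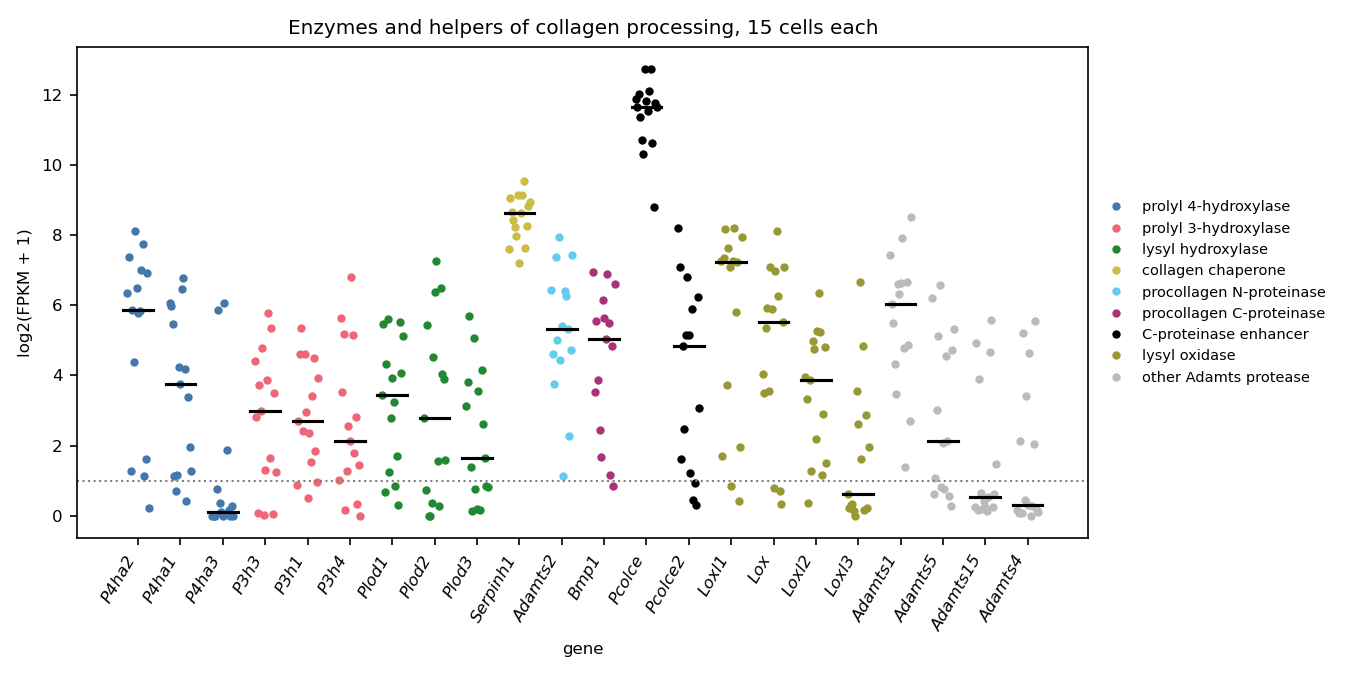
Level of each of the 22 enzymes and helpers as log2(FPKM + 1), 1 point per Tomato+ cell, with a bar at the median and a dotted line at the detection threshold of 1 FPKM. Pcolce and Serpinh1 lie above 7 in all 15 cells, while Loxl1 and Lox have most cells above 5 and a few near 0.

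The lysyl oxidases, which start crosslinks by oxidising lysine, were high in some cells and near 0 in others. Loxl1, which acts mainly on elastin, was detected in 13 cells and had a median of 7.22. It was at 5.81 or more in 10 cells, at 3.73 in cell 5, and at 1.96 or lower in cells 14, 2, 8 and 13. Lox, the founding member, which acts on collagen and elastin, was detected in 12 cells with a median of 5.52 and a highest level of 8.12 in cell 10. Lox was below 1 FPKM in cells 8 (0.80), 12 (0.71) and 13 (0.33). Cells 8 and 13 were thus low for both genes, while cell 12 had Loxl1 at 7.22, and the correlation of the pair was 0.768. Loxl2 was detected in 14 cells (median 3.87, highest 6.35 in cell 10) and Loxl3 in 7 cells (highest 6.66 in cell 9).

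The other Adamts genes encode proteases that cut proteoglycans rather than procollagen. Adamts1 was detected in all 15 cells, from 1.38 in cell 11 through a median of 6.03 to 8.51 in cell 15. Adamts5, an aggrecanase, was detected in 10 cells (median 2.13, highest 6.58 in cell 6). Adamts4 passed 1 FPKM in 6 cells, led by cells 13 (5.55) and 5 (5.20), and Adamts15 in 5, led by cell 12 (5.57). The highest Adamts4 levels thus fell in the cells with raised mural markers, and the part of mural identity in this was not tested.

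Mean enzyme and mean collagen levels were compared across cells. The mean level of the 21 collagens and that of the 22 enzymes and helpers had a Spearman correlation of 0.657 over 15 cells, from 0.578 to 0.807 on leaving out any 1 cell, 0.473 without cells 5 and 13, and 0.839 without cells 1, 11 and 14. Cell 13 had the lowest mean of both (3.61 and 2.74). It detected 28 of the 43 genes, and cell 11 detected the most, 38, where every cell detected 4369 of the 8446 rows. Cell 13 was lowest for 12 of the 34 widespread genes, and the same count over all widespread rows was not taken. Cell 11 also has the most rows at its lowest value (1974), and cell 13 has 1383, close to the median of 1385.

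Cell 9 combined a wide set of enzymes with the lowest basement membrane chains, although both were above 1 FPKM there. It was highest for Col8a1 (8.60), P4ha3 (6.06), P3h4 (6.80), Plod2 (7.25) and Loxl3 (6.66), and lowest for Col4a1 (3.55), Col4a2 (1.16) and Adamts2 (1.13). Among genes outside the set it was also highest for the matricellular genes Postn (12.98) and Fn1 (9.65), for Aspn (12.02), a small proteoglycan, and for Ctgf (9.55), a known TGF-beta target. Cell 11 had high Postn (11.88), Fn1 (9.35) and Aspn (11.08) too, with Col8a1 and Col12a1, but had Ctgf at 2.74. Cell 9 was singled out after its values were seen and is 1 cell.

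Partner genes of collagen folding were also widespread. Of 15 listed genes 10 had a row. All 10 were detected in at least 8 cells, where 46.8% of all rows were, and 6 in all 15, where 12.1% were. At 5 FPKM, 7 of the 10 reached 8 cells, where 32.6% of all rows did. P4hb, the shared subunit of prolyl 4-hydroxylase, had a median of 10.41, the prolyl isomerases Fkbp7 and Ppib had 9.76 and 9.17, and Crtap, the partner of P3h1, had 7.39. For export from the endoplasmic reticulum, 8 of 10 genes were detected in at least 8 cells, led by the vesicle coat genes Sec13 (7.08), Sec24d (7.01), Sar1a (6.34) and Sec31a (6.19). Mia3, the cargo receptor for procollagen, has 2 rows and was left out of the count. Of the fibril-associated matrix proteins 13 of 13 with a row reached 8 cells, led by Lum (10.24), Dpt (8.65), Bgn (8.19) and Aspn (7.76).

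Genes of collagen turnover were present in the same cells. Of 18 listed genes 12 had a row. All 12 were detected in at least 8 cells, where 46.8% of all rows were, and 9 at 5 FPKM, where 32.6% were. Mmp2, a gelatinase, stood at 6.58 to 10.38 except in cell 13 (0.73), where it was below 1 FPKM. Ctsk, a lysosomal collagenase, ran from 5.32 in cell 12 through 8.66 to 11.25 in cell 8, Timp2 had a median of 7.68 and Mmp23 one of 6.71. Of 10 listed collagen receptors 6 had a row and 5 reached 8 cells, led by Itgb1 (6.23), Ddr2 (3.80), Mrc2 (3.71) and Antxr2 (3.07).

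The genes Col18a1, Plod3, Loxl3 and Adamts4, and the Col4a1 and Col4a2 pair, overlap another row of the table on the genome. The labels do not state whether counting used strand, so reads of the overlapping partners may not have been told apart, and their values are uncertain to that extent.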

How the data were processed

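Single Tomato+ cells from inguinal fat were picked after collagenase digestion (1 h at 37 °C), and 1 library was made per cell with a 3' RNA-seq kit (source: the labels' protocols). The authors used TopHat2, Cufflinks and GRCm38, per the submitters' processing notes, with the tools' versions and settings not given in the sources used here. In the table, the authors' deposited values are named FPKM but behave as log2: they end at 13.69, and read as log2(FPKM + 1) they sum to a mean of 592948 FPKM per cell, against 12675749 read as natural logarithms. The sorted columns differed by at most 0.0354 above 0.2, so they had been quantile-normalized. The logarithm base is thus inferred.

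Columns were tied to cells by the number shared with the sample title. FPKM thresholds were applied as log2(FPKM + 1), class sums were taken on linear FPKM, and lengths and positions came from GENCODE M21, in which 8438 of 8446 rows were found. All 43 genes had the same symbol in the reference gene list. The members and lists were chosen with earlier results of these data known. Genes with a median of at least 5 FPKM or the highest value of their class were to be named, and of each companion list the 4 highest by median. The genes set out for cell 9 were chosen after their values were seen. No group comparison and no test was possible with 1 group. The member rule and the correlations were tested on simulated data. Python 3.11.15, numpy 2.4.6, pandas 2.3.3, scipy 1.17.1 and matplotlib 3.10.9 were used.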

Additional observations from a re-analysis of the deposited data

How the results depend on the processing

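The number of genes detected in at least 8 cells stayed within 1.5 times in all classes at 5 FPKM, at 1% of the highest value, by identifier, and without cells 1, 11 and 14 or cells 5 and 13, except for the 4 other Adamts proteases, where it was 1 at 5 FPKM and 1 without cells 1, 11 and 14, against 2. Taking the mean of log2 values in place of log2 of the summed FPKM gave class medians of 7.09 against 12.31 (fibrillar), 5.94 against 8.45 (basement membrane), 4.93 against 9.52 (beaded filament), 3.90 against 6.86 (FACIT) and 3.49 against 5.92 (multiplexin), as it weighs low chains equally. Multiplying lengths back moved no class share by more than its SD over cells. Reading the values as natural logarithms moved none by more than its SD either, but the SDs are wide: the median share was 4.52% against 9.48% for basement membrane, 7.61% against 14.1% for beaded filament, 0.639% against 1.85% for FACIT and 0.313% against 1.07% for multiplexin chains. Multiplying lengths back moved the median of 22 of 43 genes by more than their SD over cells. It raises each gene by an amount that its length and level fix in advance, so this count does not measure how robust a level is. Leaving out cells 1, 11 and 14 moved none of the 43 by more than its SD. The correlation of fibrillar and basement membrane sums was -0.511 without cells 5 and 13, -0.140 without cells 1, 11 and 14, -0.199 as a Pearson correlation and -0.420 to -0.169 on leaving out 1 cell, against -0.304. Without cells 5 and 13 that of fibrillar and beaded filament sums was 0.0385, against 0.268. Col5a2 and Col5a3 ranged from 0.235 to 0.556 on leaving out 1 cell. The class correlations, and leaving out cells 5 and 13 for class counts and shares, were chosen after seeing the data. No paired analysis was possible because there is 1 group. Read depth is unknown, so a low level cannot be told from a missed transcript.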

Other observations

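Signalling genes of the TGF-beta pathway, a main inducer of collagen in fibroblasts, stood close to all rows of the table. Of 16 listed genes 14 had a row and 6 were detected in at least 8 cells, where 46.8% of all rows were, and the median of their medians was 0.81, against 0.79 over all rows. The receptors were uneven. Tgfbr2 was detected in all 15 cells (median 5.37, highest 7.06 in cell 10) and Tgfbr3 in 14 (median 3.83, highest 8.17 in cell 10), while the signalling receptor Tgfbr1 passed 1 FPKM in 3 cells (median 0.18, highest 6.15 in cell 10). Of the ligands, Tgfb2 and Tgfb3 each passed 1 FPKM in 5 cells, led by cell 3 for Tgfb2 (5.67) and cell 9 for Tgfb3 (5.19). The intracellular Smad genes were detected in 3 to 6 cells each. The latent TGF-beta binding proteins Ltbp3 and Ltbp4, which tether the ligand to matrix, had medians of 3.64 and 3.02.

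Matrix protease genes were uneven between cells. Mmp3, which cuts many matrix proteins, ran from 0.58 in cell 13 through a median of 5.45 to 11.53 in cell 8, the cell with Lox at 0.80 and Loxl1 at 0.85. Timp1, a protease inhibitor, was at 10.73 in cell 2, 10.29 in cell 9 and 9.68 in cell 8, and at 0.61 in cell 13. Fap, a protease of activated fibroblasts, was highest in cell 12 (7.88) and lowest in cell 13 (0.46).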
